A study of Mus musculus with 9 samples.

Results

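The genes described here are the muscle actins Acta1, Actc1 and Acta2, the muscle alpha-actinins Actn2 and Actn3, and the tropomyosins Tpm1, Tpm2 and Tpm3. They were taken by symbol from the table that sets sham quadriceps against sham heart, where they account for 8 of 24537 gene symbols and for 25 of 35745 RefSeq transcripts. The study asked which secreted factors of skeletal muscle change after transverse aortic constriction (TAC), an operation that narrows the aortic arch and so raises the load on the left ventricle. The 6 libraries used came from hearts (n = 3) and quadriceps muscles (n = 3) of mice that had sham surgery in place of TAC, which makes both tissues controls. By the study's methods the animals were male C57Bl/6JCrl wild-type mice with no transgene, operated at 8 weeks of age by the series' text. The tissue was taken 12 weeks after surgery, a time that the methods state for quadriceps only. The other 3 libraries came from quadriceps after TAC, and their table of 587 selected genes lists none of the 8 members, so the members' response to TAC was not analysed here. The labels name the heart without a chamber and do not say whether hearts and quadriceps of the same number came from 1 animal, and the p-values therefore measure the spread between these libraries.

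Actin polymerises into the thin filament of the sarcomere, the contractile unit of striated muscle. Tropomyosin is a coiled-coil dimer that lies along this filament and, with the troponin complex, controls when myosin may bind. Alpha-actinin cross-links the thin filaments of neighbouring sarcomeres at the Z-disc. Each of these proteins is encoded by several genes, and heart, fast and slow skeletal fibres and smooth muscle are known to use different ones.

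All 25 transcripts of the 8 genes passed the filter on low counts, and all 25 differed between the tissues at an adjusted p under 0.05 (edgeR's quasi-likelihood test). Among all 24280 transcripts tested, 66.6% were called by the same rule, with 32.2% of all transcripts higher in quadriceps and 34.4% lower, so a call alone says little in this comparison. The members' share of non-overlapping groups reads in the same way, since 25 of 25 member transcripts did not overlap between the tissues in normalised counts against 72.6% of all transcripts. As to size, the median absolute log2 fold change was 5.04 over the 8 leading transcripts and 0.74 over all transcripts. A leading transcript is the one with the most counts of its gene. By it, 5 genes were higher in quadriceps (Acta1, Actn3, Tpm1, Tpm2 and Tpm3) and 3 were lower (Actc1, Acta2 and Actn2).

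The libraries held 33102826 to 38382751 counts in heart and 23383452 to 32989108 in quadriceps. Fold changes below were scaled with TMM, which sets the bulk of transcripts of both tissues level (median log2 fold change over all transcripts -0.06). RPKM values are divided by transcript length and by the total of the library, without that step. Scaled by library totals, the median of all transcripts moved to -0.81 and the calls from 7828 higher and 8354 lower to 3240 higher and 15203 lower, and all 8 members kept their direction. The log2 fold changes were then 4.12 for Acta1, -5.98 for Actc1, 7.51 for Tpm2 and 7.21 for Tpm3, all below their TMM values. Markers matched the labelled tissues. The summed RPKM of 7 cardiomyocyte markers was 15690 to 16750 in heart and 6.52 to 10.9 in quadriceps, and that of 7 fast fibre markers was 1.40 to 2.11 in heart and 41090 to 45660 in quadriceps. As these are bulk samples, fewer cells of a type and less RNA per cell cannot be told apart in any of the differences below.

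**Figure D1:**
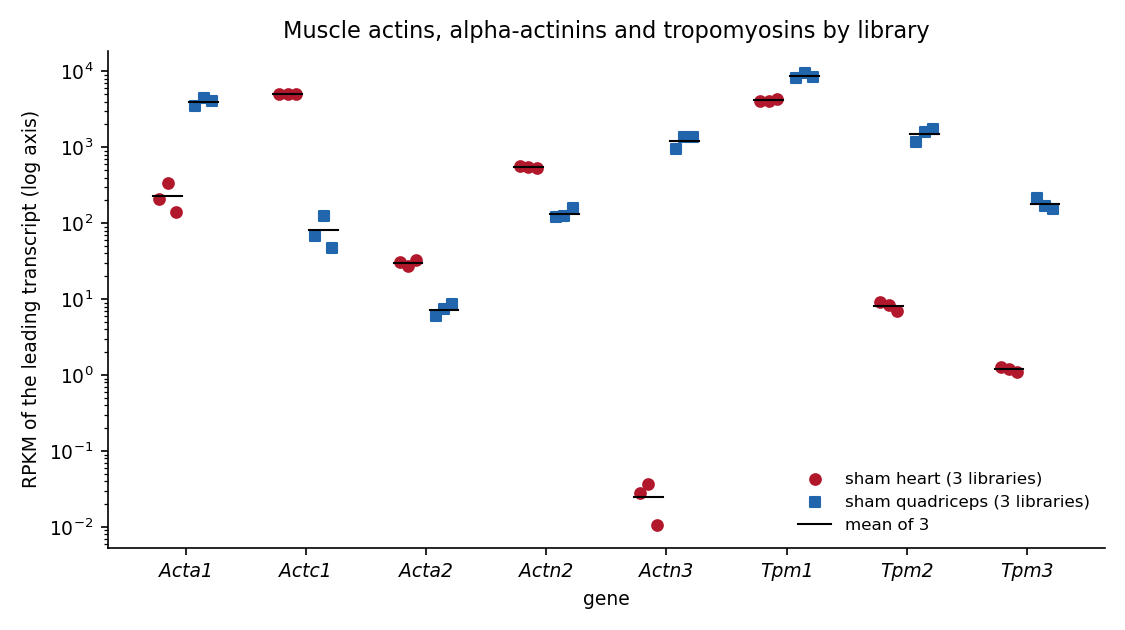
RPKM (counts scaled by transcript length and library total, log axis) of the leading transcript of each of the 8 genes, with a circle for each sham heart library, a square for each sham quadriceps library and a bar for the mean of 3. The 2 tissues did not overlap for any gene, and Actn3 showed the widest gap, from at most 0.0364 RPKM in heart to at least 938 RPKM in quadriceps.

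Actc1, the cardiac actin of the thin filament, and Acta1, the skeletal one, exchanged places between the tissues. Actc1 (NM_009608) lies on the minus strand at chr2:114047282-114053548 of GRCm38 and has 7 exons. It reached 5101, 5074 and 5094 RPKM in the hearts and 68.9, 126 and 47.4 RPKM in the quadriceps. The hearts lay within a narrow band while the quadriceps libraries were spread widely, with the second one highest. The log2 fold change was -5.20 ± 0.38 (SE, n = 3 per tissue, edgeR adjusted p = 2.53e-06), which is 36.8 times higher in heart.

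Acta1 (NM_009606, minus strand, chr8:123891769-123894751, 7 exons) was at 3505, 4395 and 4035 RPKM in the quadriceps and at 209, 338 and 141 RPKM in the hearts. Here the hearts were the uneven group, with the second library highest and the third lowest. The log2 fold change was 4.88 ± 0.34 (SE, n = 3 per tissue, edgeR adjusted p = 1.71e-06), a 29.5-fold difference. Genes of the atria also differed among the hearts, with Myl7 at 96.4, 7.35 and 0.156 RPKM, Myl4 at 211, 22.6 and 3.15 RPKM and Nppa at 687, 610 and 283 RPKM. The third heart was thus lowest for all of these and for Acta1, the first was highest for these and the second for Acta1, and the part of atrial tissue in the spread of Acta1 was not tested. The second listed Acta1 transcript (NM_001272041) gave a log2 fold change of 4.88 as well, and its counts were lower by only 9 to 29 in the hearts and 295 to 429 in the quadriceps, so both rows rest on nearly the same reads.

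Acta2, the actin of vascular smooth muscle, was the lowest of the actins in both tissues. Its transcript (NM_007392, minus strand, chr19:34241090-34255590, 9 exons) was at 30.7, 27.3 and 32.5 RPKM in the hearts and 5.96, 7.39 and 8.53 RPKM in the quadriceps. The difference was far smaller than those of the striated actins, with a log2 fold change of -1.29 ± 0.16 (SE, n = 3 per tissue, edgeR adjusted p = 9.62e-05) with TMM and -2.05 with library totals. Of 9 smooth muscle and pericyte markers, 3 were higher in quadriceps, 3 lower and 3 not called, and their summed RPKM was 504 to 554 in heart and 420.3 to 499 in quadriceps. Most of that sum was Des, which striated muscle also uses (363 to 406 RPKM in heart and 326 to 429 in quadriceps), and without it the other 8 markers summed to 141 to 153 RPKM in heart and 57.5 to 94.6 RPKM in quadriceps. These sums are scaled by library totals. Rgs5, the largest of the 8, was at 88.2 ± 8.30 RPKM in heart and 52.7 ± 16.3 in quadriceps (SD, n = 3). With TMM it was not called (log2 fold change -0.008 ± 0.17, SE, edgeR adjusted p = 0.968), so no direction is given for the sum of the 8. Myh11, the smooth muscle myosin heavy chain, was not called (log2 fold change 0.05 ± 0.18, edgeR adjusted p = 0.824). Of the 9, Tagln, Lmod1 and Des were higher with TMM (log2 fold changes 0.76 ± 0.17, 1.78 ± 0.27 and 0.75 ± 0.16). Smtn, Pdgfrb and Myocd were lower (-1.52 ± 0.11, -1.44 ± 0.12 and -7.93 ± 0.23, SE, edgeR adjusted p at most 0.00309 in either direction). Myocd, a cofactor of cardiac as well as smooth muscle, was nearly absent from quadriceps (0.0168 ± 0.01 RPKM, SD). Endothelial markers were lower in quadriceps in 4 of 4 cases (summed RPKM 126 to 138 in heart and 22.6 to 26.3 in quadriceps). The part of vessel content in the Acta2 difference was not tested.

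The bases just before the RefSeq start of the 3 actin genes are shown because the striated actins moved in opposite directions and a box bound by serum response factor, the CArG box, is known to act in actin promoters. They are given 5′ to 3′ on the coding strand, with an exact CArG box in capitals (RefSeq, GRCm38.p6; Acta1 chr8:123894776-123894875, Actc1 chr2:114052876-114052975, Acta2 chr19:34255374-34255473, all on the minus strand).
Acta1: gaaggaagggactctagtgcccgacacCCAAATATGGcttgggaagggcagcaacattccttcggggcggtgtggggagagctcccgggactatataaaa
Actc1: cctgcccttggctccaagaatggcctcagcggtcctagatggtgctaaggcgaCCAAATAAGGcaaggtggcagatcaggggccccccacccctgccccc
Acta2: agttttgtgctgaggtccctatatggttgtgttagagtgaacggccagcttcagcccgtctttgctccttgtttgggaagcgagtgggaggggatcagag

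The box began 73 bases before the RefSeq start in Acta1, which was higher in quadriceps, and 47 bases before it in Actc1, which was higher in heart. Distances here depend on the annotated start, since the GENCODE interval of Actc1 given above begins further upstream, at chr2:114053548. They need not be distances from where transcription began in these tissues. An exact box was found on either strand in 1.63% of the 32851 promoters of the RefSeq table, all of the same length, and among the 7 members with an entry it was found in Acta1 and Actc1 only. The window of Acta2 held no exact box, and near matches, such as ccctatatgg and ccttgtttgg in the Acta2 sequence shown, were not counted by this rule. MCAT elements, searched as CATTCC, were matched in Acta1, Acta2 and Tpm1 and in 14.7% of all promoters, the letters TATAAA of the TATA box in Acta1 (beginning 7 bases before the start) and Actc1 (33 bases after it) and in 13.6%, and E-boxes (CANNTG) in all 7 members and in 72.3%. MEF2 sites had no exact match in the 7 members and occurred in 3.19% of all promoters. These are letters in a window and no measurement of binding.

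Actn3, the alpha-actinin of fast fibres, was present in one tissue and at the edge of detection in the other. The transcript (NM_013456, minus strand, chr19:4861216-4877909, 21 exons) had 3, 4 and 1 counts in the hearts and 87745, 130518 and 90196 counts in the quadriceps. In RPKM the quadriceps were at 938, 1381 and 1347. Pooled over 3 libraries each, 8 counts in heart stood against 308459 in quadriceps, a ratio of 78900 with a 95% interval of 40100 to 183000 that covers counting error only. The call was made at an edgeR adjusted p of 3.73e-09.

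Actn2, the alpha-actinin of cardiac muscle and of all skeletal fibres, was found in both tissues and was lower in quadriceps. NM_033268 (minus strand, chr13:12269426-12340760, 21 exons) was at 561, 551 and 529 RPKM in the hearts and 119, 124 and 157 RPKM in the quadriceps. Its log2 fold change was -1.28 ± 0.15 (SE, n = 3 per tissue, edgeR adjusted p = 6.39e-05), or 2.42 times higher in heart, with TMM, and -2.04 with library totals. The groups were separated by a gap wider than the spread within either tissue. The 2 coding sequences shared only 2 windows of 50 bases, the read length of the study, so reads of one gene could rarely have been counted for the other.

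Tpm1, the alpha-tropomyosin of heart, fast fibres and smooth muscle, was the most abundant member in quadriceps and was higher there. NM_001164248 (minus strand, gene at chr9:67022590-67049406, 10 exons) was at 4071, 4076 and 4299 RPKM in the hearts and 8117, 9417 and 8548 RPKM in the quadriceps. The log2 fold change was 1.83 ± 0.17 (SE, n = 3 per tissue, edgeR adjusted p = 1.04e-05) with TMM and 1.07 with library totals. The 10 listed Tpm1 transcripts lay between 1.83 and 2.01, and all were called. Their counts share most reads and are not independent values.

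Tpm2, the beta-tropomyosin of skeletal and smooth muscle, was a minor transcript of heart and a major one of quadriceps. Its leading transcript NM_009416 (minus strand, gene at chr4:43514711-43523765) was at 9.25, 8.40 and 6.90 RPKM in the hearts and 1192, 1571 and 1723 RPKM in the quadriceps. The log2 fold change was 8.28 ± 0.28 (SE, n = 3 per tissue, edgeR adjusted p = 1.59e-08). Both other transcripts were close to it, at 8.05 and 7.87.

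Tpm3, the tropomyosin of slow fibres whose shorter forms are found in most cells, showed the largest difference between transcripts of 1 gene. NM_001293748 (plus strand, gene at chr3:90072649-90100902, 10 exons) was at 1.29, 1.20 and 1.10 RPKM in the hearts and 212, 169 and 153 RPKM in the quadriceps, a log2 fold change of 7.95 ± 0.16 (SE, n = 3 per tissue, edgeR adjusted p = 1.78e-09). The 6 listed transcripts fell into those with an upstream start, which encode the muscle form, and those with a start further into the gene. The 2 with the upstream start had log2 fold changes of 7.23 and 7.95, and the 4 with the downstream start had 1.31 to 3.25.

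**Figure D2:**
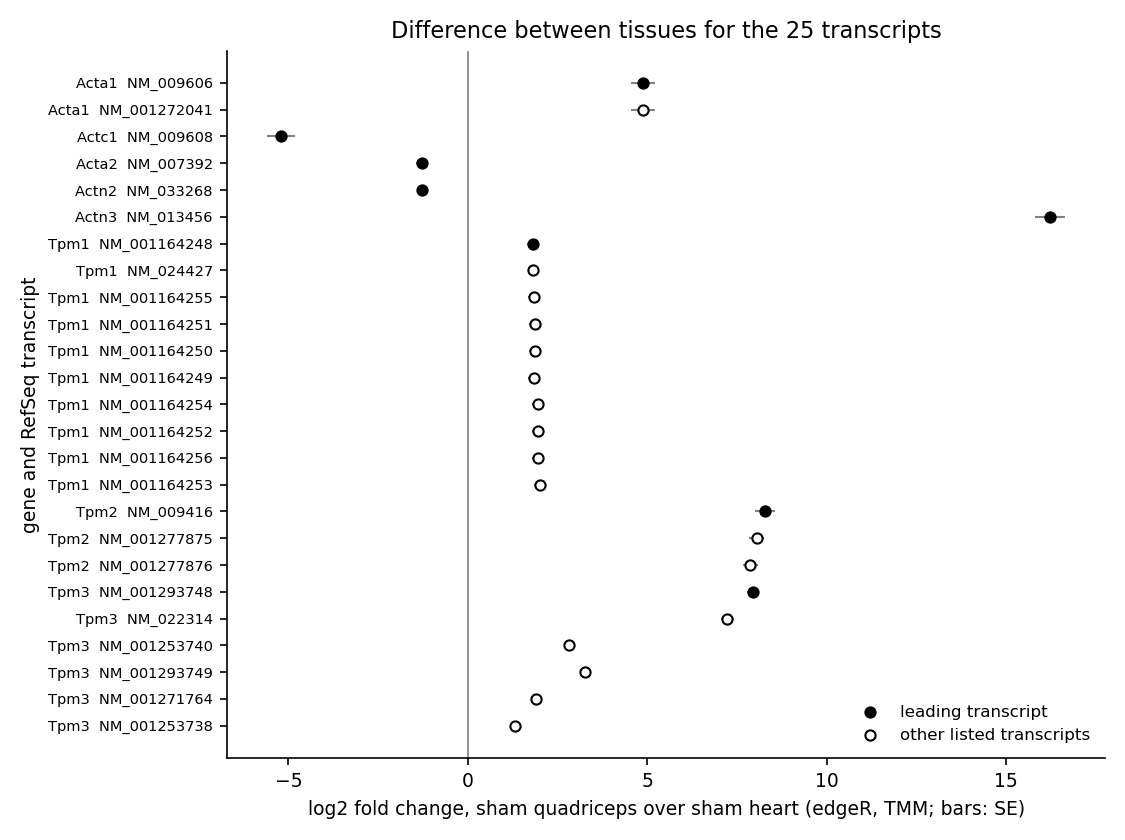
log2 fold change of sham quadriceps over sham heart for each of the 25 transcripts (edgeR with TMM, bars are SE, n = 3 per tissue), with filled circles for the leading transcript of each gene and open circles for the others. Transcripts of Acta1, Tpm1 and Tpm2 lie close together within their gene, whereas those of Tpm3 run from 1.31 to 7.95.

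In heart the order of Tpm3 rows was turned around. The upstream-start rows held 41 to 87 counts in a heart library and the downstream-start rows 107 to 201, whereas in quadriceps the upstream rows held 3474 to 7798 counts and the downstream rows 124 to 814. For the pair NM_022314 and NM_001253738, whose later exons are the same in GENCODE, the upstream row minus the downstream row was -74, -83 and -69 counts in the hearts and 6553, 5299 and 3350 counts in the quadriceps. The row with the downstream start was thus ahead in every heart and that with the upstream start in every quadriceps. These differences give the lead of a row and not the level of either start, since the bases particular to each start need not be alike in length or uniqueness. Because exons common to both starts add to both rows, the fold changes of the downstream rows also hold reads of the upstream form.

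Sequence shared with another locus limits the Tpm3 levels. Of the 50-base windows of the GENCODE transcript matched to NM_001293748, 33.2% also occur in Tpm3-rs7, a copy of Tpm3, and for NM_022314 and NM_001253738 this was 62.4% and 66.8%. Tpm3-rs7 is not listed in the table, and the part of lost or misplaced reads in the Tpm3 values was not tested. The other genes were nearly free of this: unique windows made up 97.8% in Acta1, 99.7% in Acta2, 99.9% in Actn2 and Actn3, and 100% in Actc1, Tpm1 and Tpm2. The coding sequences of Acta1 and Actc1 were identical at 86.3% of bases, yet their longest identical run was 29 bases and they shared no 50-base window.

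The stretches just before the 2 starts of Tpm3 are shown because the fold changes split by start (RefSeq, GRCm38.p6, plus strand, 5′ to 3′; upstream chr3:90072551-90072650, downstream chr3:90079421-90079520). Neither held an exact CArG box or MEF2 site, so no base is in capitals.
Tpm3 upstream start: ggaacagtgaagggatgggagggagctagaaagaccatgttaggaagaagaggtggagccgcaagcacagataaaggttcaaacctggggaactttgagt
Tpm3 downstream start: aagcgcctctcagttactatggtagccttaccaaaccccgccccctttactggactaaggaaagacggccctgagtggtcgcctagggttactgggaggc

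Transcripts that have the same listed length and differ by 1 alternative coding exon were set side by side. Their RefSeq exons are not used here, and the GENCODE transcripts matched to a pair also differ in total length, so a difference in counts holds the reads on that exon and any on ends that the pair does not share. In Tpm2 the lead of one row over the other differed between the tissues. The pair NM_001277875 and NM_001277876 differs by an exon of 76 bases, of which the downstream one (chr4:43518644-43518719) is known from skeletal muscle and the upstream one (chr4:43519003-43519078) from smooth muscle and other cells. Both are shown 5′ to 3′ on the coding strand (GRCm38, minus strand), with capitals where they differ, because this is the coding exon by which the pair differs.
Tpm2 downstream exon: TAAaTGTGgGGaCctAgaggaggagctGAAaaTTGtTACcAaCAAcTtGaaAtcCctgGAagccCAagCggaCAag
Tpm2 upstream exon: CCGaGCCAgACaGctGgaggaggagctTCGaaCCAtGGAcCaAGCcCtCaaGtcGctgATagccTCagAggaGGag

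In the quadriceps the row with the downstream exon was ahead by 9145, 11288 and 7879 counts, which is 10.4%, 10.5% and 10.3% of its counts. In the hearts the difference was 3, -12 and -22 counts, or 0.41%, -1.56% and -3.54%. The 3 quadriceps were thus close together in the lead of the row with the downstream exon, and in the hearts neither row had a steady lead. The heart values rest on few reads, because Tpm2 was low there. With 3 libraries on either side, exact permutation of the labels cannot give a two-sided p below 0.1.

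Tpm1 has a pair of exons at the same place, again of 76 bases and identical at 43 of them. The row with the downstream exon (chr9:67031951-67032026), known from striated muscle, was ahead of the row with the upstream one (chr9:67032466-67032541) in every library. They are shown in the same way (GRCm38, minus strand), since here the excess was the larger in heart.
Tpm1 downstream exon: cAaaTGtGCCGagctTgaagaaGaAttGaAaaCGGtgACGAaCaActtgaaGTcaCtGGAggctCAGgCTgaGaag
Tpm1 upstream exon: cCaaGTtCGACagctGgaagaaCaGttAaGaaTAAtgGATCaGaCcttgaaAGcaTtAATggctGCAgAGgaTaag

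Between NM_001164248 and NM_001164251 the excess was 6.66%, 6.99% and 6.27% of counts in the hearts and 4.41%, 4.67% and 4.65% in the quadriceps, with no overlap between tissues. The longer pair NM_024427 and NM_001164250, which rests on largely the same reads, gave 6.92% ± 0.36 in heart and 4.77% ± 0.17 in quadriceps (SD, n = 3). A further pair of Tpm1 exons, 126 bases long and identical at 60 of them, differed less between the tissues. The row with the downstream exon of it (chr9:67047786-67047911) exceeded that with the upstream one (chr9:67048124-67048249), known from smooth muscle, by 16.5% ± 0.26 of counts in heart and 15.5% ± 0.45 in quadriceps (SD, n = 3). These shares give the lead of one row over the other and not the level of either exon.

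**Figure D3:**
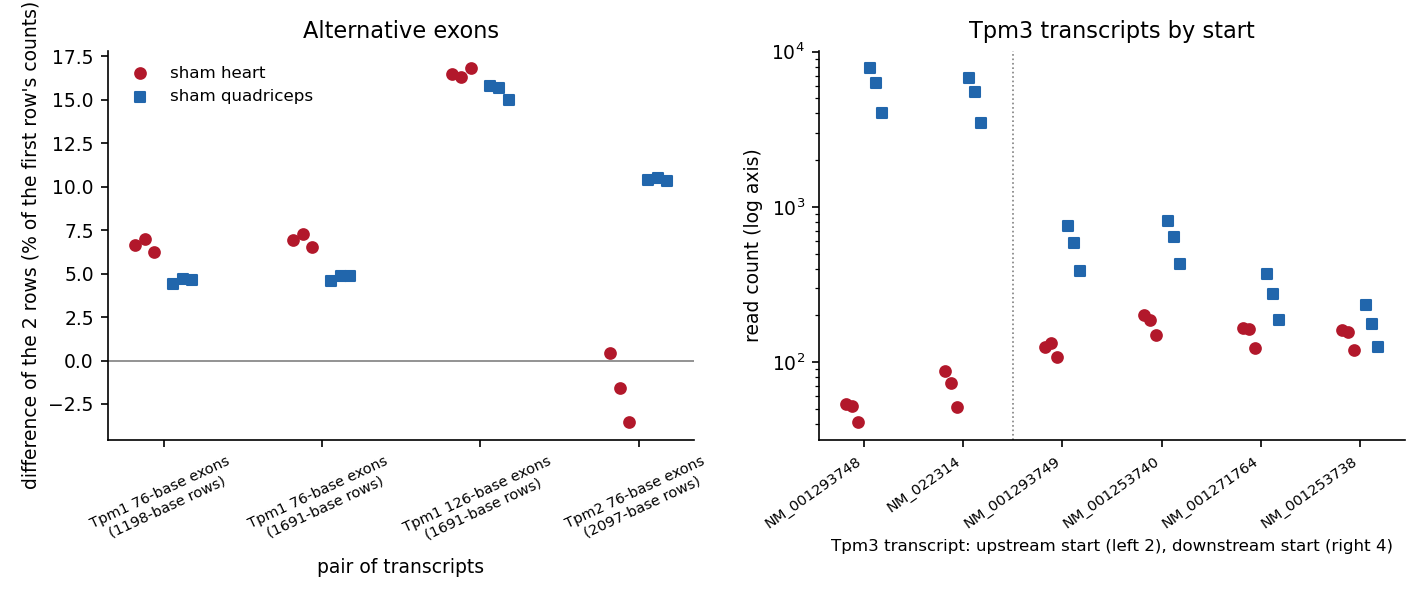
Left, the counts of 1 transcript minus those of its partner with the alternative exon, as a percentage of the first one's counts, per library (circles heart, squares quadriceps). Right, read counts (log axis) of the 6 Tpm3 transcripts per library: the 2 with the upstream start lie at 41 to 87 counts in heart and 3474 to 7798 in quadriceps, and the 4 with the downstream start lie at 107 to 201 and 124 to 814.

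Shares per length give the makeup of each family. Of the summed RPKM of the 3 actins, Actc1 made up 95.2% ± 1.73 in heart and 1.96% ± 0.81 in quadriceps, and Acta1 4.27% ± 1.79 and 97.9% ± 0.79 (SD, n = 3). Acta2 made up 0.56% ± 0.06 and 0.18% ± 0.03. The sum itself was 5349 ± 86.1 RPKM in heart and 4066 ± 475 RPKM in quadriceps, but its direction turned when the TMM factors were applied, to 4121 ± 52.5 in heart and 5315 ± 977 in quadriceps, so no direction is given for it. For 100 RPKM of Actc1 the hearts had 4.09, 6.65 and 2.78 RPKM of Acta1, and for 100 RPKM of Acta1 the quadriceps had 1.97, 2.87 and 1.17 RPKM of Actc1.

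Actn3 made up 0.0045% ± 0.0023 of the summed alpha-actinin RPKM in heart and 90.0% ± 1.57 in quadriceps (SD, n = 3). Actn2 was lower in quadriceps and Actn3 came on top of it there, and the sum was 547 ± 16.4 RPKM in heart and 1356 ± 258 RPKM in quadriceps. For 100 RPKM of Actn3 the quadriceps had 12.7, 8.97 and 11.7 RPKM of Actn2.

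Tpm1 remained the main tropomyosin, with 99.8% ± 0.04 of the summed RPKM in heart and 83.9% ± 1.68 in quadriceps (SD, n = 3). Tpm2 made up 0.20% ± 0.03 and 14.4% ± 2.02, and Tpm3 0.029% ± 0.003 and 1.74% ± 0.43. The Tpm2 share leans on the listed length of NM_009416, 3239 bases, and was larger when counts were not divided by length (30.7 percentage points more in quadriceps than in heart, against 14.2). Tpm1 likewise leans on the listed length of its leading row, 1198 bases. That row was at 4149 RPKM in heart and 8694 in quadriceps, and NM_024427, listed at 1691 bases, at 2856 and 5989 (means of 3). The Tpm3 share is that of its leading row NM_001293748, at 1.20 RPKM in heart and 178 in quadriceps. The other upstream-start row, NM_022314, was at 0.869 and 78.4 RPKM. In heart the downstream-start row NM_001293749 was above both, at 2.63 RPKM (means of 3), so the leading row does not stand for all Tpm3 there. The summed tropomyosin RPKM, which rests on the leading rows, was 4158 ± 129 in heart and 10370 ± 819 in quadriceps. With TMM the sums of the alpha-actinins and tropomyosins remained higher in quadriceps, whereas the shares do not depend on the scaling. Each of these shares and sums was separated between the tissues, that of the actins in opposite directions under the 2 scalings, at p = 0.1 by exact two-sided permutation, the smallest that this design allows.

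**Figure D4:**
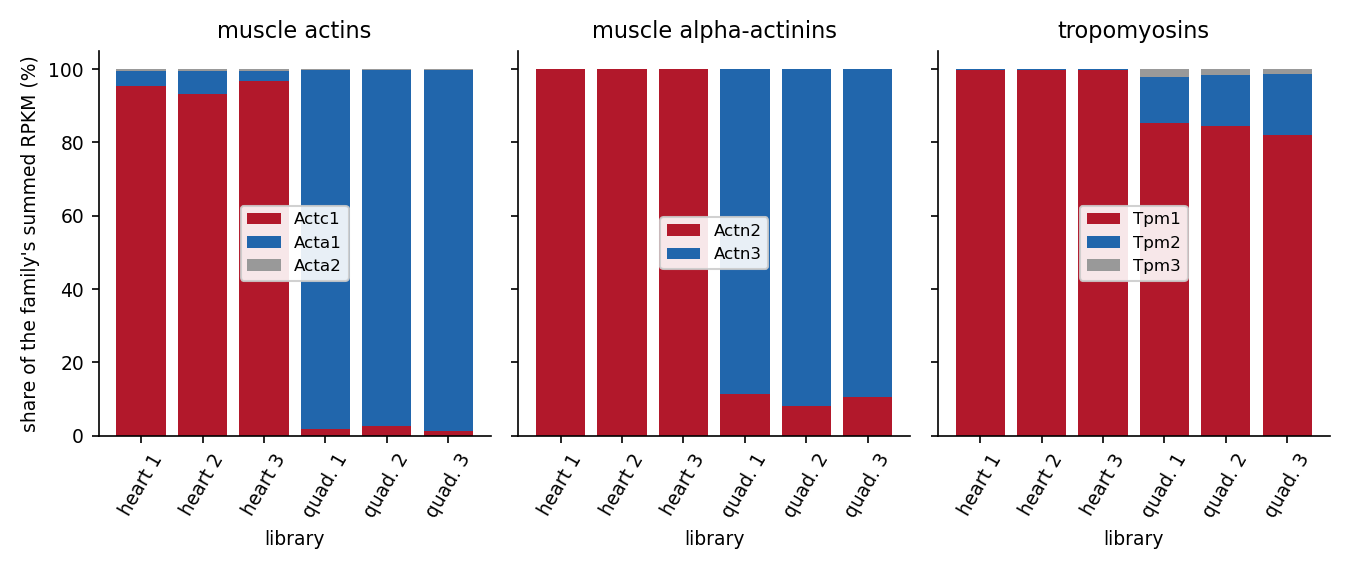
Share (%) of each gene in the summed RPKM of its family, in stacked bars for 3 sham heart and 3 sham quadriceps libraries. Actc1 fills 93.3% to 96.7% of the actin bar in heart and Acta1 97.0% to 98.6% in quadriceps, Actn3 fills 88.7% to 91.8% of the alpha-actinin bar in quadriceps, and Tpm1 82.0% to 85.2% of the tropomyosin bar there.

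Ranked per length within the hearts, mean RPKM fell from Actc1 (5090) over Tpm1 (4149), Actn2 (547), Acta1 (229), Acta2 (30.2), Tpm2 (8.18) and Tpm3 (1.20) to Actn3 (0.025), and no neighbours in this order overlapped. In the quadriceps the order was Tpm1 (8694), Acta1 (3978), Tpm2 (1496), Actn3 (1222), Tpm3 (178), Actn2 (133), Actc1 (80.8) and Acta2 (7.29). There the libraries of Tpm2 and Actn3, of Tpm3 and Actn2, and of Actn2 and Actc1 overlapped in range. Within a library Tpm2 was above Actn3 in 3 of 3 quadriceps, by 254, 190.0 and 376 RPKM, whereas Tpm3 was above Actn2, and Actn2 above Actc1, in 2 of 3, and these last 2 pairs did not differ beyond their spread. The Tpm3 values of this ranking depend on the row used. In the quadriceps NM_022314 was at 93.55, 74.68 and 66.86 RPKM, below Actn2 in every library. In the hearts the downstream-start rows had means of 1.78 to 2.63 RPKM, above that of the row ranked.

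Paralogs of the 3 families from outside striated muscle were called in both directions. Of 6 tested, 4 were lower in quadriceps, 1 was higher and 1 was not called, with a median log2 fold change of -1.04 against -0.06 for all transcripts. The nonmuscle alpha-actinins Actn1 and Actn4 fell, with log2 fold changes of -1.97 ± 0.11 and -1.60 ± 0.09, and so did the nonmuscle tropomyosin Tpm4 at -0.89 ± 0.11 and the enteric actin Actg2 at -1.19 ± 0.41 (SE, edgeR adjusted p at most 0.028). Actb, cytoplasmic beta-actin, was at 57.6 ± 4.49 RPKM in heart and 36.4 ± 3.01 in quadriceps and was not called (log2 fold change 0.10 ± 0.12, edgeR adjusted p = 0.495). With library totals 5 of the 6 were lower and 1 was higher, and with DESeq2, the replicate block and some other alternatives 3 were lower. Actg2 rests on 18 to 20 counts in a heart and 3 to 5 in a quadriceps library. Actg1, cytoplasmic gamma-actin, was the one that was higher (1.49 ± 0.23), but its listed transcript stood at only 0.483 ± 0.12 and 0.808 ± 0.05 RPKM (SD, n = 3).

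For this list and those below, the share called among all transcripts was 66.6%, with 32.2% higher and 34.4% lower. Genes that build and trim the thin filament were found in both directions. Of 23, 13 were higher in quadriceps, 9 lower and 1 not called, with a median log2 fold change of 0.71 (10 higher and 11 lower with library totals). Neb, the giant nebulin that runs along the skeletal thin filament, rose by 8.22 ± 0.45, and its cardiac relative Nebl fell by 9.12 ± 0.29. Tmod4, the tropomodulin that caps thin filaments of skeletal muscle, rose by 4.83 ± 0.13, and the formin Fhod3, an actin assembly factor of the heart, fell by 2.34 ± 0.16 (log2 scale, SE, edgeR adjusted p at most 1.57e-06).

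Troponins, the partners of tropomyosin, were called in 8 of 8 cases against 66.6% of all transcripts. Of them 5 were higher and 3 lower, with a median log2 fold change of 5.59. The fast forms Tnnc2 and Tnnt3 rose by 18.26 ± 0.30 and 16.21 ± 0.35, fitted values that depend on the few counts in heart. The cardiac forms Tnni3 and Tnnt2 fell, with values of -13.01 ± 0.26 and -10.39 ± 0.23 (log2 scale, SE, edgeR adjusted p at most 1.97e-09). Proteins known to bind alpha-actinin at the Z-disc were also called in both directions, with 9 of 15 genes higher in quadriceps, 4 lower and 2 not called, and a median of 1.13 (8 higher and 6 lower with library totals). Among them Myoz3, a calsarcin of fast fibres, was listed at 0 RPKM in all 3 hearts and at 33.8 ± 4.64 RPKM in quadriceps, and Myoz1, another one, at 0.0734 ± 0.04 and 644 ± 50.9 RPKM. Csrp3, the muscle LIM protein, and Myoz2, the calsarcin of heart and slow fibres, fell, with values of -2.97 ± 0.55 and -2.82 ± 0.11 (log2 scale, SE, edgeR adjusted p at most 0.00102). The quadriceps were uneven for Csrp3, at 48.1, 28.1 and 160 RPKM against 1043 ± 72.6 in heart (SD, n = 3).

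Serum response factor, MEF2 proteins and their cofactors are known to act on muscle actin genes, and 12 of them were read from the same fit. Of these, 7 were higher in quadriceps, 3 lower and 2 not called, with a median log2 fold change of 0.375, whereas with library totals 3 were higher and 7 lower. Srf itself was not called (-0.22 ± 0.15, edgeR adjusted p = 0.225). Fhl2, a LIM cofactor, and Myocd, the myocardin cofactor of cardiac and smooth muscle, fell, with log2 fold changes of -8.90 ± 0.21 and -7.93 ± 0.23. Mef2c and the factor Tead4 rose by 3.63 ± 0.12 and 2.47 ± 0.18 (log2 scale, SE, edgeR adjusted p at most 2.03e-06).

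**Figure D5:**
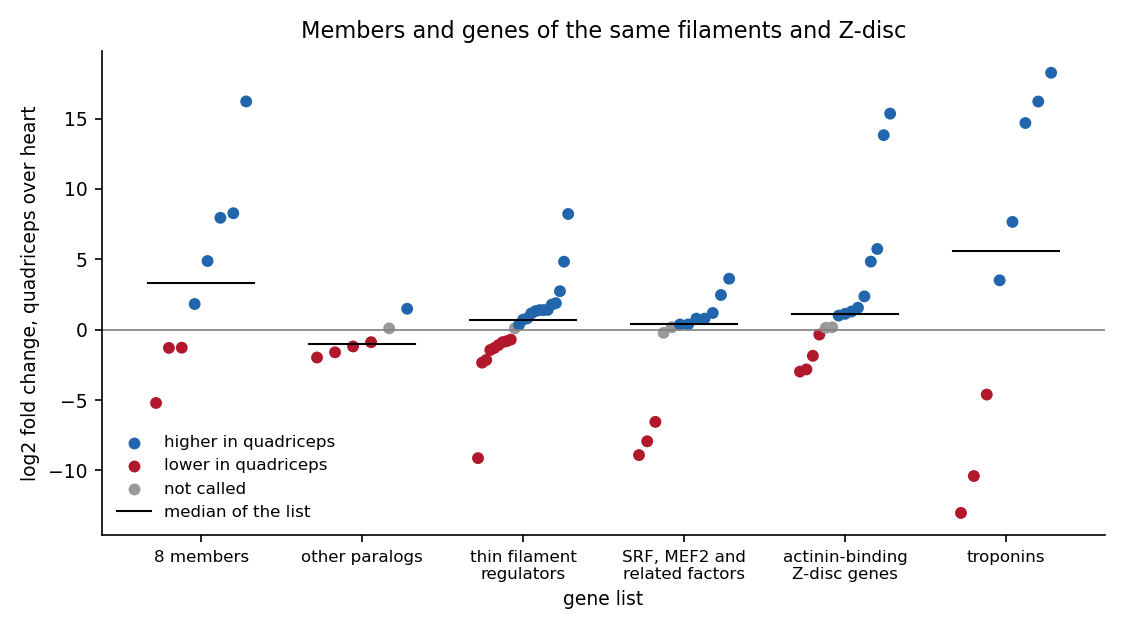
log2 fold change of quadriceps over heart (edgeR with TMM) for the 8 members and the genes of 5 lists, 1 point per gene by its leading transcript, coloured by whether it was higher, lower or not called, with a line at the median of each list. The medians are 3.35 for the members, -1.04 for the other paralogs, 0.71 for the thin filament regulators, 0.375 for the SRF, MEF2 and related factors, 1.13 for the Z-disc genes and 5.59 for the troponins.

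For each member, the genes outside the 3 families with the most similar pattern were found by the distance of log2 CPM, centred on the row mean, over the 6 libraries, among transcripts with a mean of at least 10 CPM. For Acta1 these were Tmod4 (distance 0.737) and Tspan8 (0.746), and for Actc1 they were Slc4a3 (0.898) and Tmem144 (0.903). Acta2 was nearest to Itga7 (0.179) and Kank1 (0.182), and Actn2 to Igf2r (0.0928) and Podxl (0.118). The genes nearest to Actn3 were the fast myosin heavy chain Myh4 (0.844) and parvalbumin, Pvalb (1.02). Tpm1 had Cdc34 (0.0808) and Jtb (0.095), Tpm2 had Ctxn3 (0.407) and Plcd4 (0.605), and Tpm3 had Kcnma1 (0.564) and Padi2 (0.632). With only 2 tissues, genes of a like difference between them come out as near.

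Slow and fast fibre markers give the setting of the Tpm3 and Actn3 values. All 7 fast fibre markers were higher in quadriceps, whereas of 7 slow fibre markers 2 were higher and 5, which heart also uses, were lower (summed RPKM 16550 to 17710 in heart and 479.8 to 510.1 in quadriceps). The higher ones were the slow troponins Tnnt1, at 116 ± 12.5 RPKM in quadriceps against 17.2 ± 1.83 in heart, and Tnni1, at 19.99 ± 1.38 against 0.160 ± 0.05 RPKM (SD, n = 3). Myh7, the slow and beta-cardiac myosin heavy chain, was at 248 ± 27.7 RPKM in heart and 35.6 ± 8.32 in quadriceps. The part of slow fibres in the Tpm3 difference was not tested.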

How the data were processed

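Per the study's methods, single-end reads were trimmed (Trim Galore), placed on mm10 with STAR and summed over RefSeq transcripts with Rsubread, and the authors deposited these sums as raw counts. Counting options and strand use are not given in the sources used here, and the extraction protocol in the labels names quadriceps alone. The deposited RPKM values are those counts divided by transcript length and library total. Columns of the authors' own comparisons (fold changes, test statistics, p-values) were not used, nor were 6 columns of single libraries, the RPKM of the TAC table. The test, on transcripts above 5 counts in 2 or more of the 6 libraries, was that of edgeR 4.0.16 under R 4.3.3 (TMM, quasi-likelihood test, Benjamini-Hochberg over 24280 transcripts, threshold 0.05).

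The members and lists were chosen with earlier results of these data known. Each gene was named by its transcript with the most counts. Of each list the 2 genes with the largest change in either direction among those called were to be named, and of the paralogs all. Further genes named (Des, Lmod1, Myh7, Myh11, Myl4, Myl7, Nppa, Pdgfrb, Rgs5, Smtn, Srf, Tagln, Tnni1, Tnnt1) were picked after their values were seen. Positions, exons and 50-base windows come from GENCODE vM21, to which 25 of 25 member transcripts were matched, and promoters from RefSeq for 7 of 8 genes, without Actn3. On simulated data 90% of 200 transcripts changed by a log2 fold change of 2, evenly up and down, were recovered among 23894, with 7.69% false calls. Far more transcripts were called in the real comparison, so these rates do not give its error rate and do not test its scaling. No pair of replicates was near sampling noise (chi-square per degree of freedom at least 7.39). Libraries of the same number did not deviate together (r of -0.017, -0.159 and -0.098), and heart and quadriceps were not treated as pairs. Alternatives were other scalings, filters and tests (DESeq2 1.42.0, limma 3.58.1), a replicate block and leaving out each library. TMM-scaled family sums and the smooth muscle sum without Des were added after seeing the data. Python 3.11.15 with pandas 2.3.3, scipy 1.17.1 and matplotlib 3.10.9 was used outside R.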

Additional observations from a re-analysis of the deposited data

How the results depend on the processing

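The 127 values that the alternatives gave for the 8 fold changes all kept their direction and their side of the threshold. Acta1 ranged from 4.12 to 5.26, Actc1 from -6.09 to -4.90, Acta2 from -2.05 to -1.09, Actn2 from -2.05 to -1.13, Tpm1 from 1.07 to 1.95, Tpm2 from 7.34 to 8.49 and Tpm3 from 6.33 to 8.06. Actn3 ranged from 10.2 to 16.5 and was dropped where every library had to hold 10 counts or more, since its hearts held at most 4. With the replicate block 15716 of 24280 transcripts were called, among them 25 of 25 member transcripts. No call of a member changed, while paralogs called lower went from 4 to 3.

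Transcripts called higher and lower numbered 3240 and 15203 with library totals and 3201 and 15319, 3194 and 15322, and 3218 and 15365 with limma on log2 RPKM at pseudocounts of 0.5, 1 and 0.1. With 1 transcript per gene 9803 of 14906 transcripts were called, 4744 higher and 5059 lower, and 8 of 8 members. By a log2 fold change over 2 with unadjusted p under 0.05, 3796 of 24280 transcripts were called, 12 of them members. The rows of Acta2 and Actn2, 9 of 10 Tpm1 rows and 2 of 6 Tpm3 rows lie below that size. The SRF and MEF2 list had 3 higher and 7 lower with library totals and with limma at each pseudocount. The filter of 10 counts left 1 of that list lower and 2 troponins higher, by testing fewer genes. Leaving out each library in turn gave 1 to 2 paralogs higher, with 2 without the first quadriceps library, and 3 to 4 lower. Over all alternatives 3 to 5 paralogs were lower.

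The difference in share, quadriceps minus heart in percentage points, moved when RPKM was summed over all transcripts of a gene, to 91.0 for Acta1, -90.5 for Actc1, -0.45 for Acta2, -6.91 for Tpm1, 6.50 for Tpm2 and 0.411 for Tpm3, because rows that share reads were then added up. With raw counts it was -0.68 for Acta2, -31.9 for Tpm1 and 30.7 for Tpm2. Chosen after seeing the data, the TMM factors turned the difference in summed RPKM of the actins from -1283 to 1194 and moved that of the alpha-actinins to 1355 and of the tropomyosins to 10320. Depth limits Actn3 and Tpm3 in heart, and for Tpm2 it limits the difference between its exon rows there.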
